A study of Mus musculus with 12 samples.

Results

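Genes of DNA replication and mitosis were followed in mouse hearts that lacked the DNA exonuclease Trex1, the DNA-sensing adaptor STING, or both. The set held 40 genes, listed by symbol and chosen with earlier results of these data known. It included the replication helicase subunits Mcm2 to Mcm7, enzymes and factors of DNA synthesis, and cyclins with Cdk1. Mitotic kinases, checkpoint proteins, spindle motors, centromere proteins and cytokinesis factors were also in it. Of 19057 genes named on the array, 38 were members, and no probe was named here for Ccnb1 or Mki67. Each gene was read from its brightest probe, and 30 members were above background on at least 2 of the 12 arrays and entered the test. The other 8 were too dim: Ccna2, Ccnb2, Bub1, Ube2c, Kif20a, Cenpe and Racgap1 were detected on 0 arrays, and Ect2 on 1, replicate 1 of Trex1 KO, STING +/+. Their raw signals of 64.6 to 94.6 lay near the median raw signal of the arrays, which was at most 90.3.

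The hearts came from untreated mice of the mixed strain C57BL6/129Sv, and the labels used here give no age. There were 6 genotypes with 2 arrays each: Trex1 deficient (KO) and Trex1 wild type (WT) on STING +/+, KO and WT on STING +/-, and KO and WT on STING -/-. The study asked what loss of Trex1 does in the heart and whether it depends on STING. The labels give neither the alleles used nor whether the 2 samples of a genotype were separate mice. Sex-linked transcripts show different mice within Trex1 KO, STING +/+ and within Trex1 WT, STING -/-; in the other 4 groups the spread behind the p-values may be technical.

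Proliferating cells make these transcripts in waves. E2F factors drive the genes of DNA synthesis as cells leave G1, and complexes of B-MYB, FOXM1 and the MuvB core drive the genes of mitosis in G2. In resting cells the DREAM complex holds both groups down, through E2F sites and the cell cycle genes homology region (CHR). CCAAT boxes, bound by NF-Y, are a further element of such promoters and not a site of that repression. Adult heart muscle cells seldom divide, so a healthy adult heart carries little of these RNAs, and they can also come from dividing leukocytes, fibroblasts or endothelial cells. In whole-heart RNA, fewer cells of a type and less RNA per cell cannot be told apart.

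The promoters of several of the genes described below hold the letters of these elements. RefSeq promoter windows (build GRCm38.p6) were available for 34 of the 40 members and 27025 genes in all, and the 250 bases upstream of each start were searched on both strands. The letters CCAAT stood in 27 of the 34 members (79.4%), against 34.2% of all genes, and at least 2 copies stood in 17 of the 34, against 10.4%. The CHR letters TTTGAA stood in 11 (32.4%), against 16.3% of all genes, and any E2F-type letters in 8 (23.5%), against 6.8%. The E2F-type letters searched were TTCCCGC, its variant with letters TTGGCGC and a further form written TTCGCGC, and their matches can overlap one another. The 200 bases before the start of 6 members follow, 5′ to 3′ on the gene's own strand, with these matches in capitals. Cdk1, Cdc20 and Kif22 are shown as mitotic genes with CCAAT and CHR letters, Mcm5 and Mcm6 as replication genes with E2F-type letters, and Nusap1, the member with the largest difference below, as one without any match; they were chosen after the matches were seen. The windows are chr10:69352913-69353112 (minus strand) for Cdk1, chr4:118437344-118437543 (minus) for Cdc20, chr7:127042421-127042620 (minus) for Kif22, chr8:75109309-75109508 (plus) for Mcm5, chr1:128359706-128359905 (minus) for Mcm6 and chr2:119618098-119618297 (plus) for Nusap1.
Cdk1: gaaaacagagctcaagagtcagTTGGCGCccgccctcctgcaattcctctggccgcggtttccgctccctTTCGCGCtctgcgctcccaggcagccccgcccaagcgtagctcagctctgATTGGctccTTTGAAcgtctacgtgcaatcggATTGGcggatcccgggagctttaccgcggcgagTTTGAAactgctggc
Cdc20: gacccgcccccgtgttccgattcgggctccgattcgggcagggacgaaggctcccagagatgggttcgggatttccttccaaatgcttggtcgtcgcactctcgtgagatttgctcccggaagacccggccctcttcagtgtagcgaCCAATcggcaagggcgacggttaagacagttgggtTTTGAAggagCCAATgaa
Kif22: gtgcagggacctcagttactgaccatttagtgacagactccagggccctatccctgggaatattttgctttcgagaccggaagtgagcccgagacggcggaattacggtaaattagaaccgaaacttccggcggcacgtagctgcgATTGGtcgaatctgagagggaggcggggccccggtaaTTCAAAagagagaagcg
Mcm5: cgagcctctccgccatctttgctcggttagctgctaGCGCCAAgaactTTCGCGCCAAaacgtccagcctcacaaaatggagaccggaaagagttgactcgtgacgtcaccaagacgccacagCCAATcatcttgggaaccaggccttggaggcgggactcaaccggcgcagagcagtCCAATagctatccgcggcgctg
Mcm6: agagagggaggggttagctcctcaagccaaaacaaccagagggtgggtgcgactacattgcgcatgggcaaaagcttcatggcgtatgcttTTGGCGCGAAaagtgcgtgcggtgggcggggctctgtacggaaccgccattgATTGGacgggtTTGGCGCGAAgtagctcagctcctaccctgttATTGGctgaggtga
Nusap1: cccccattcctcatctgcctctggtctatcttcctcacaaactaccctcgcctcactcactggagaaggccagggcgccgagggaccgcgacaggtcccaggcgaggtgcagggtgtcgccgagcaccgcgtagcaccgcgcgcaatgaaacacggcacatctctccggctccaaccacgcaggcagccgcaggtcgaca
In these windows Cdk1 held 2 CHR, 2 CCAAT and 2 E2F-type matches, Cdc20 held 1 CHR and 2 CCAAT matches, and Kif22 held 1 of each of these 2 kinds. Mcm5 held 3 E2F-type and 2 CCAAT matches, and Mcm6 held 4 and 2. A match of letters is a description of the window and not a shown binding site.

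Some arrays stood apart from their labels or from each other. On replicate 2 of Trex1 KO, STING +/+ both detected Trex1 probes, ILMN_3131766 and ILMN_2509737, lay within the WT range, at 6.76 (WT 6.53 to 7.34) and 7.84 (WT 7.37 to 8.16), while on the other 5 KO arrays they read 5.38 to 5.68 and 6.79 to 7.30. The group is therefore the one labelled Trex1 KO, STING +/+ wherever a direction is drawn from it. The description label gives another STING genotype than the title and genotype labels, which were used here, for 7 of the 12 samples. Sting1 read 4.67 to 5.02 on the STING -/- arrays, 7.03 and 6.94 on those labelled Trex1 KO, STING +/+, and 4.79 to 5.75 on the other 6. Xist, a transcript of female cells, was bright on replicate 2 of Trex1 KO, STING +/+, on both Trex1 WT, STING +/+ arrays and on replicate 1 of Trex1 WT, STING -/-. The comparison of KO with WT on STING +/+ thus also differs in sex, while all 4 STING +/- arrays lacked Xist. Between 38.3% and 44.7% of the probes were detected per array, with the highest shares on replicate 1 of Trex1 KO, STING +/+ and replicate 1 of Trex1 KO, STING +/-. Heart muscle markers were bright on every array, with a list mean of 13.24 to 14.16.

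On STING +/+, transcripts of mitosis and of DNA replication were higher in hearts labelled Trex1 KO than in Trex1 WT hearts. Of the 30 measured members 25 rose and 0 fell (Benjamini-Hochberg adjusted p under 0.05 in a limma fit of all 12 arrays), where 11.8% of all 15561 features rose and 9.93% fell. The median difference over the 30 was 1.64 on the log2 scale, and over all features it was -0.04. Nusap1, which bundles spindle microtubules, was 6.88-fold higher, Cdc20, which activates the anaphase-promoting complex, 5.79-fold, and Cdk1, the kinase that starts mitosis, 5.11-fold. These 3, like Birc5, Bub1b, Aurka and Kif22 below, were above background on 1 of the 2 WT arrays, so their folds are not exact. Of the measured members 6 (Aurkb, Kif11, Kif2c, Tpx2, Depdc1b and Top2a) were detected only on Trex1 KO arrays that carry STING. Such a member had to differ to be measured. Among the 9 members detected on all 12 arrays, 6 rose, with a median of 1.02. Without background correction the median of the 30 was 0.83, so the size of the folds depends on that step. Leaving out WT replicate 1 left 12 members higher and leaving out WT replicate 2 left 15, against 21 without KO replicate 1, where every array left carried Xist, and 18 without KO replicate 2.

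**Figure D1:**
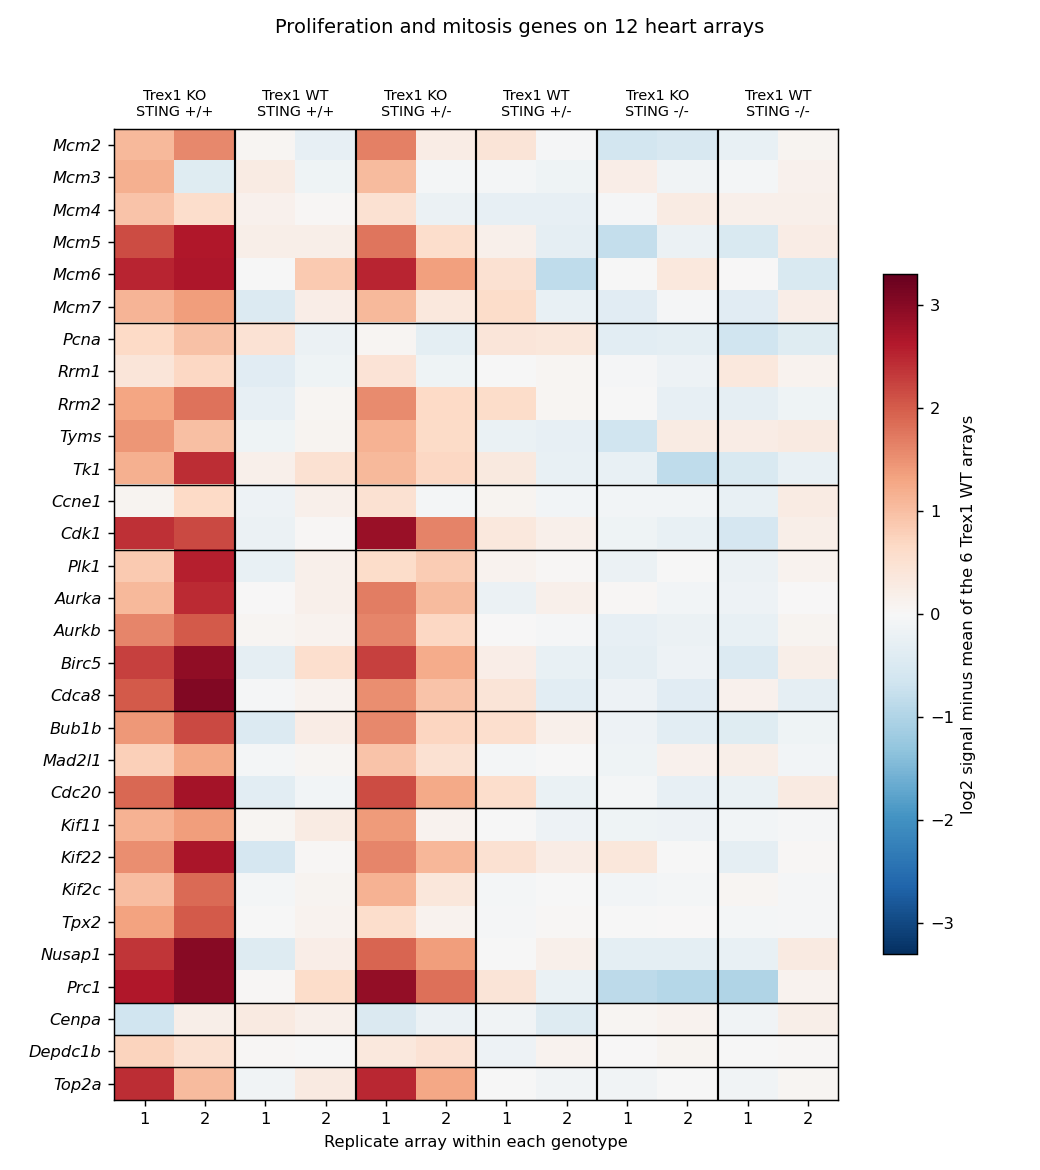
The heat map shows the 30 measured members (rows, grouped by role) on the 12 arrays (columns), coloured by log2 signal minus the mean of the 6 Trex1 WT arrays. The 4 columns of Trex1 KO hearts that carry STING are bright in most rows, with KO, STING +/- replicate 2 the palest of them, and the Trex1 KO, STING -/- columns are pale like the WT columns.

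The helicase that opens replication origins is built from Mcm2 to Mcm7, and 4 of its 6 subunit genes rose on STING +/+. Mcm5 read 8.6 and 9.11 (log2 signal) in hearts labelled Trex1 KO, against 6.65 and 6.64 in WT hearts, a difference of 2.21 ± 0.41 (SE; adjusted p = 0.00392, limma). Mcm6 read 8.29 and 8.43, against 5.75 and 6.63, a difference of 2.17 ± 0.49 (adjusted p = 0.0113). In both genes each KO array lay well above each WT array. Mcm2 (1.43 ± 0.40, adjusted p = 0.0291, limma) and Mcm7 (1.36 ± 0.37, adjusted p = 0.0267) also rose without overlap. Mcm4, detected on all 12 arrays, had 9.66 and 9.32 in KO hearts, against 8.88 and 8.77 in WT hearts, and missed the threshold (0.67 ± 0.25, adjusted p = 0.0835). Mcm3 had 6.49 and 4.91 in KO hearts, against 5.59 and 5.18 in WT hearts. Its KO arrays fell on either side of the WT arrays (0.31 ± 0.48, adjusted p = 0.691, limma), and the same split between replicates 1 and 2 was seen in KO hearts on STING +/-, at 6.36 and 5.25.

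Among the genes of DNA synthesis 4 of 5 rose. Rrm2, the regulated subunit of ribonucleotide reductase, which makes deoxynucleotides, read 6.03 and 6.54 in Trex1 KO hearts on STING +/+, against 4.46 and 4.8 in WT hearts. WT was not above background there, and the gene was at least 2.43-fold higher (adjusted p = 0.0054, limma). Rrm1, its partner subunit, was detected on all 12 arrays and moved less, with 7.76 and 8.03 in KO hearts, against 6.99 and 7.21 in WT hearts (0.79 ± 0.23, adjusted p = 0.0367). Tk1, which salvages thymidine, had 6.91 and 8.16, against 5.89 and 6.23 (1.48 ± 0.39, adjusted p = 0.0237), and Tyms, which makes thymidylate, had 8.03 and 7.57, against 6.45 and 6.68 (1.24 ± 0.31, adjusted p = 0.0177). All 4 genes were brighter on both KO arrays than on either WT array. Pcna, the sliding clamp of the replicative polymerases, had 6.74 and 7.03 in KO hearts, against 6.55 and 5.88 in WT hearts. It missed the threshold (0.67 ± 0.25, adjusted p = 0.087, limma), and the higher WT array lay close below the lower KO array.

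Cyclin and Cdk members were mostly too dim to judge. Cdk1 read 7.42 and 7.19 in Trex1 KO hearts on STING +/+, against 4.83 and 5.07 in WT hearts, a difference of 2.35 ± 0.37 (adjusted p = 0.00152, limma). Both KO arrays stood over 2 log2 units above both WT arrays. Ccne1, the cyclin that drives entry into S phase, had 4.83 and 5.38, against 4.55 and 4.90, and its groups overlapped (0.38 ± 0.28, adjusted p = 0.369). The partners of Cdk1, Ccna2 and Ccnb2, were not above background on any array, so whether they moved with Cdk1 was not detectable here.

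The mitotic kinases and the chromosomal passenger complex, which corrects faulty attachments of chromosomes to the spindle, rose in each of the 5 members measured. Of these 5, Aurkb was detected only on Trex1 KO arrays that carry STING and so had to differ. Birc5, which encodes survivin, read 7.43 and 8.09 in KO hearts on STING +/+, against 4.88 and 5.72 in WT hearts (2.46 ± 0.41, adjusted p = 0.00236, limma). Cdca8, the borealin subunit, had 6.80 and 7.85, against 4.74 and 4.90, where WT was not above background, and was at least 4.99-fold higher (adjusted p = 0.00127). Aurkb, the kinase of the complex, had 6.34 and 6.76, against 4.8 and 4.86, and was at least 2.92-fold higher (adjusted p = 0.00241). These 3 subunits of the complex thus rose without overlap between arrays, with Aurkb the one that had to differ. Incenp, a further subunit, was listed with the other mitotic genes below. Aurka, the kinase of spindle poles, differed by 1.68 ± 0.39 (adjusted p = 0.0127, limma). Plk1, which acts in mitotic entry and exit, read 5.66 and 7.36 in KO hearts, against 4.56 and 4.96, and was at least 2.84-fold higher (adjusted p = 0.0168). The 2 KO arrays of Plk1 lay further apart than those of most members.

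Checkpoint and anaphase genes that could be measured rose as well, 3 of 3. Cdc20 read 6.97 and 7.83 in Trex1 KO hearts on STING +/+, against 4.73 and 5.00 in WT hearts (2.53 ± 0.39, adjusted p = 0.00151, limma). Bub1b, the BubR1 kinase-like subunit of the spindle checkpoint, had 6.83 and 7.58, against 4.96 and 5.66 (1.89 ± 0.36, adjusted p = 0.00456). Mad2l1, which holds Cdc20 inactive until chromosomes are attached, was detected on all 12 arrays and had 7.45 and 7.91, against 6.59 and 6.74 (1.02 ± 0.24, adjusted p = 0.0124). The checkpoint inhibitor and the activator it restrains were both higher on each KO array. Bub1 and Ube2c, the conjugating enzyme of the anaphase-promoting complex, were not above background on any array.

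The spindle genes held the member with the largest difference, and each of the 6 measured rose. Of these 6, however, 3 (Tpx2, Kif2c and Kif11) were detected only on Trex1 KO arrays that carry STING and so had to differ. Nusap1 read 7.77 and 8.42 in KO hearts on STING +/+, against 4.99 and 5.64 in WT hearts (2.78 ± 0.32, adjusted p = 0.000246, limma). Prc1, which crosslinks the midzone of the late spindle, had 8.48 and 8.82, against 5.86 and 6.45 (2.49 ± 0.43, adjusted p = 0.00285). Kif22, a motor that pushes chromosome arms, had 6.78 and 7.93, against 4.69 and 5.29 (2.37 ± 0.38, adjusted p = 0.00171). No WT array reached a KO array in these 3 genes. Tpx2, the activator of Aurora A on the spindle, was at least 2.15-fold higher (adjusted p = 0.00148, limma). Kif2c, a microtubule depolymerase of centromeres, was at least 1.81-fold higher, and Kif11, the motor that separates spindle poles, at least 1.72-fold, each over a WT signal not above background.

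Of the remaining members, Top2a, which untangles replicated DNA, read 7.02 and 5.63 in KO hearts on STING +/+, against 4.46 and 4.86 in WT hearts, and was at least 2.49-fold higher (adjusted p = 0.027, limma). Its replicate 1 was the brighter, whereas replicate 2 was the brighter in 24 of the 30 members. Depdc1b had 5.21 and 4.98, against 4.53 and 4.47, and was at least 1.06-fold higher (adjusted p = 0.0459, limma). Top2a and Depdc1b were detected only on Trex1 KO arrays that carry STING and so had to differ. Cenpa, the histone H3 variant of centromeres, behaved otherwise: it was bright on every array, with 11.01 and 11.85 in KO hearts, against 11.95 and 11.83 in WT hearts. The difference was -0.46 ± 0.28 (adjusted p = 0.267, limma), and without KO replicate 2 it was -0.88 (adjusted p = 0.0337). A second detected probe of Cenpa differed by -0.15.

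Other detected probes of the members that rose mostly gave smaller differences in the same direction on STING +/+. Those of Birc5 gave 2.04 and 1.86, those of Mcm6 2.74 and 1.88, and those of Cdc20 1.47, 1.65 and 0.40. The second probe of Cdca8 gave 0.91, that of Rrm2 1.37, that of Mad2l1 1.16, that of Rrm1 0.97, and that of Bub1b 0.30. Further ones gave 0.82 for Mcm7, 0.77 for Tk1 and 0.94 for Tyms, and another probe of Mcm6, detected on 1 array, gave 0.26. The further probes of Nusap1, Cdk1, Prc1 and Top2a were detected on 0 arrays, so these genes rest on 1 probe each.

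**Figure D2:**
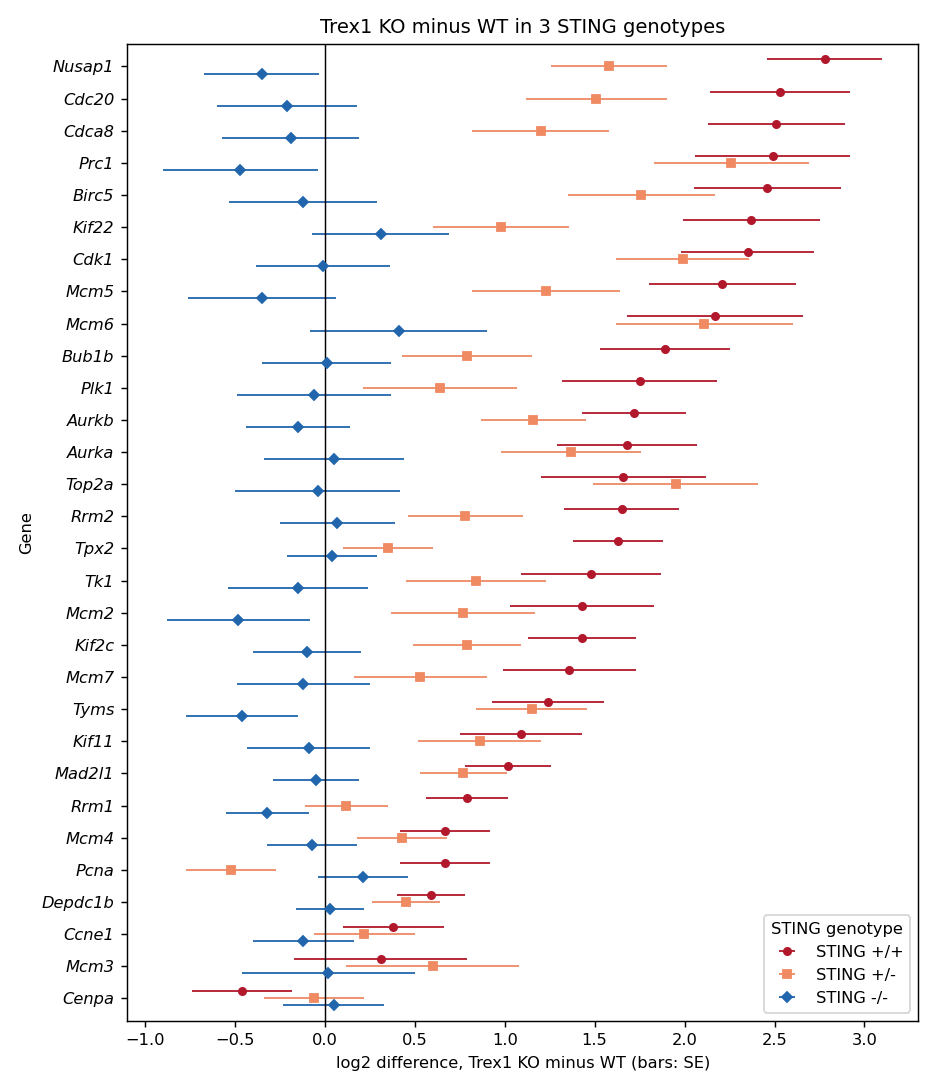
Each measured member (rows, ordered by the difference on STING +/+) has its log2 difference, Trex1 KO minus WT, with the standard error as bars: circles on STING +/+, squares on STING +/- and diamonds on STING -/-. The diamonds lie between -0.48 and 0.41, the squares mostly between them and the circles, and Pcna has its square on the negative side.

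With 1 functional STING allele, Trex1 KO hearts again carried more mitotic RNA than WT hearts, in fewer genes that passed the test. On STING +/- 3 of the 30 members rose and 0 fell, where 1.14% of all features rose and 0.129% fell. Prc1 read 8.73 and 7.66 in KO hearts, against 6.26 and 5.62 in WT hearts (2.26 ± 0.43, adjusted p = 0.0381, limma). Cdk1 had 7.87 and 6.66, against 5.36 and 5.19 (1.99 ± 0.37, adjusted p = 0.0301), and Nusap1 had 7.34 and 6.80, against 5.39 and 5.59 (1.58 ± 0.32, adjusted p = 0.0455). In these 3 genes both KO arrays lay above both WT arrays, with replicate 1 the higher. Both KO arrays lay above both WT arrays in 24 of the 30 members, against 18.9% of all features. This order was favoured in the 6 members measured only through Trex1 KO arrays that carry STING. The median difference was 0.53 over the 9 members detected on all 12 arrays and 0.82 over all 30. Among those short of the threshold, Mcm6 differed by 2.11 ± 0.49 (adjusted p = 0.085, limma), Birc5 by 1.76 ± 0.41 (adjusted p = 0.0866) and Cdc20 by 1.51 ± 0.39 (adjusted p = 0.127), each above background on 1 of the 2 WT arrays. Top2a, 1 of the 6 members measured only through Trex1 KO arrays that carry STING, was at background in WT hearts. It was at least 2.61-fold brighter in KO hearts (adjusted p = 0.085, limma).

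Pcna was the one member whose KO arrays both lay below the WT arrays on STING +/-. It read 6.13 and 5.74 in KO hearts, against 6.47 and 6.45 in WT hearts; over all features such a separation downwards was seen in 25.9%. The difference did not pass the test (-0.52 ± 0.25, adjusted p = 0.47, limma). The 2 KO arrays on STING +/- differed from each other: replicate 1 was the brighter in 27 of the 30 members, with a median gap of 0.71, while over all features the median gap was -0.02. The count of 3 was 0 without KO replicate 1, without WT replicate 1 or without WT replicate 2, and 8 without KO replicate 2. It was also 0 with no filter on dim probes or with only the 4 arrays compared, and 1 without background correction.

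Set side by side, the difference was larger on STING +/+ than on STING +/- in 27 of the 30 members, and 28 were positive in both; these comparisons share no arrays. Tested directly, in a comparison added after the data were seen, the Trex1 difference on STING +/+ minus that on STING +/- had a median of 0.64. In limma 0 members passed the threshold, where 1.39% of all features were higher and 0.527% lower. An unadjusted p under 0.05 was seen in 5 of 30, and the share of all features for that count is not given here. The values nearest to passing were those of Tpx2 (1.28 ± 0.36, adjusted p = 0.0966) and Pcna (1.19 ± 0.36, adjusted p = 0.114). Genes of DNA synthesis, with the helicase and Ccne1, had medians of 1.30 on STING +/+ and 0.68 on STING +/-, and genes of G2 and mitosis 1.74 and 1.07. On STING +/+ 8 of 12 of the first kind and 17 of 18 of the second rose, but the second kind includes the 6 members detected only on Trex1 KO arrays that carry STING, which had to differ. Without background correction 8 of 12 and 14 of 18 rose on STING +/+, with medians of 0.77 and 0.87. No difference between the kinds was tested.

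Without STING no rise was seen in Trex1 KO hearts. On STING -/- 0 members passed the limma threshold in either direction, and their differences ran from -0.48 to 0.41 with a median of -0.08. An unadjusted p under 0.05 was seen in 0 members, against 1.72% of all features. Few other features moved either: 0% rose and 0.0129% fell. Nusap1 read 5.09 and 5.08 in KO hearts, against 5.16 and 5.71 in WT hearts. Prc1 had 4.96 and 4.90, against 4.85 and 5.95, and Cdk1 had 4.87 and 4.78, against 4.47 and 5.21. In these 3 genes the KO arrays lay inside or just below the range of the WT arrays. Of the 30 measured members, 13 were detected on neither Trex1 KO, STING -/- array.

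The dependence on STING was tested as the difference between the Trex1 differences on STING +/+ and on STING -/-. It was positive and passed the threshold in 12 of the 30 members, where 6.4% of all features were higher and 3.47% lower. These were the replication genes Mcm5 (2.56 ± 0.58, adjusted p = 0.0221, limma) and Tyms (1.70 ± 0.44, adjusted p = 0.0367), and the mitotic genes Nusap1, Prc1, Cdc20, Cdca8, Birc5, Cdk1, Kif22, Bub1b, Aurkb and Tpx2. Nusap1 had 3.13 ± 0.45 (adjusted p = 0.00274), and Prc1 had 2.96 ± 0.61 (adjusted p = 0.0149). Cdca8, Aurkb and Tpx2 were at background in 3 of the 4 groups involved and Prc1 and Cdk1 in Trex1 KO, STING -/-, so the sizes for these 5 are not exact. Aurkb and Tpx2 were also measured only through Trex1 KO arrays that carry STING, which favours a positive difference. Nusap1, Cdc20, Birc5, Kif22 and Bub1b were above background on 1 of the 2 Trex1 WT, STING +/+ arrays, so their sizes are not exact either. Of the 9 members detected on all 12 arrays 2 passed, with a median of 1.11 over the 9. The count of 12 depended on single arrays. It was 1 without replicate 1 and 5 without replicate 2 of Trex1 WT, STING +/+, 7 without replicate 1 and 2 without replicate 2 of Trex1 WT, STING -/-, 3 without replicate 1 of Trex1 KO, STING -/-, and 19 without replicate 1 of Trex1 KO, STING +/+. It was 7 with no filter.

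**Figure D3:**
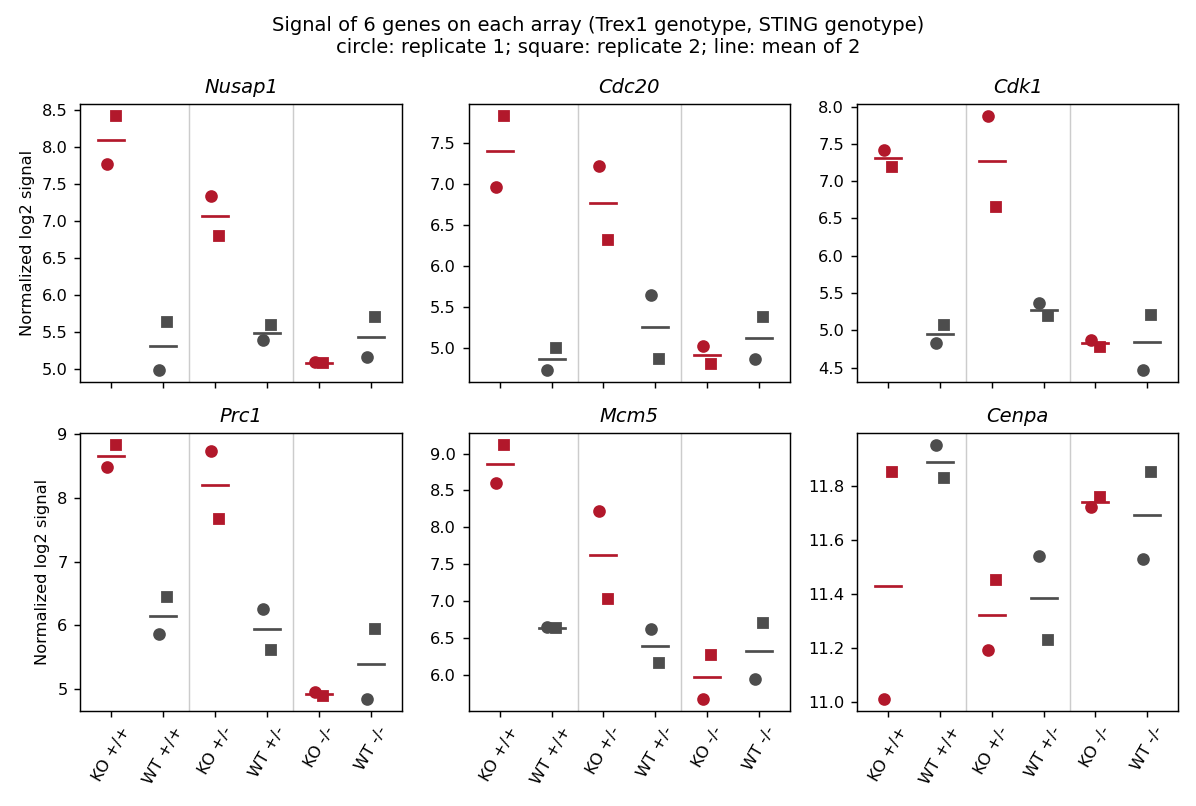
Each panel shows 1 gene's log2 signal on the 12 arrays, as points by genotype with a bar at the group mean, KO left of WT for STING +/+, +/- and -/-. In Nusap1, Cdc20, Cdk1, Prc1 and Mcm5 both arrays of the KO groups that carry STING lie above both arrays of their WT groups, and Cenpa does not show this order.

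Within Trex1 KO hearts, loss of both STING alleles went with lower levels of most members. Comparing STING -/- with STING +/+, 24 of 30 fell and 0 rose, where 12.7% of all features fell and 11.3% rose. Of the 30, 6 were measured only through Trex1 KO arrays that carry STING, which favours a fall. Among the 9 members detected on all 12 arrays, 6 fell, with a median of -1.14. Prc1 was at least 12.9-fold lower (adjusted p = 0.000258, limma), with 4.96 and 4.90 on STING -/-, not above background, against 8.48 and 8.82 on STING +/+. Cdca8 was at least 5.16-fold lower and Cdk1 at least 5.08-fold lower. Nusap1 fell by 3.01 ± 0.32 (adjusted p = 0.000149) and Mcm5 by 2.88 ± 0.41 (adjusted p = 0.000862). Pcna, which had not passed between KO and WT, fell by 1.14 ± 0.25 (adjusted p = 0.0099, limma), with 5.73 and 5.76 on STING -/-, against 6.74 and 7.03 on STING +/+. These values share the STING +/+ KO arrays with the Trex1 comparison above, and so are no second set of measurements. Without replicate 2 of Trex1 KO, STING +/+, where the arrays left all lacked Xist, 21 members fell.

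Loss of the last STING allele was compared in Trex1 KO hearts, STING -/- against STING +/-. Prc1 was at least 9.42-fold lower (adjusted p = 0.00529, limma) and Cdk1 at least 4.95-fold lower (adjusted p = 0.00917), while Nusap1 fell by 1.98 ± 0.32 (adjusted p = 0.0127). Both STING -/- arrays lay below both STING +/- arrays in 25 of 30, against 20% of features. This order was favoured in the 6 members measured only through Trex1 KO arrays that carry STING. By the test, Prc1, Cdk1 and Nusap1 were the 3 members that passed, where 1.21% of all features fell and 0.141% rose. The count was 0 without replicate 1 of Trex1 KO, STING +/- or without replicate 2 of Trex1 KO, STING -/-, and 11 without replicate 2 of Trex1 KO, STING +/-. Loss of 1 allele, STING +/- against +/+ in KO hearts, gave 2 of 30 members past the threshold (6.67%). Over all features 6.75% fell and 4.25% rose, so the count is near that share. Tpx2 had 5.02 and 4.54 on STING +/-, against 5.76 and 6.46 on STING +/+ (-1.33 ± 0.25, adjusted p = 0.0105, limma), and Pcna had 6.13 and 5.74, against 6.74 and 7.03 (-0.95 ± 0.25, adjusted p = 0.0395). In both genes the STING +/- arrays lay below the STING +/+ arrays, a separation seen in 24.8% of all features. Tpx2 was above background on 1 of the 2 STING +/- arrays. This count was 4 without replicate 1 and 0 without replicate 2 of Trex1 KO, STING +/-, and 9 without replicate 1 and 1 without replicate 2 of Trex1 KO, STING +/+.

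With Trex1 intact, STING -/- and STING +/+ hearts did not differ by the test in any measured member. In limma 0 of 30 passed, where 0.0386% of all features rose and 0.0193% fell. An unadjusted p under 0.05 was seen in 1 of the 30, against 9.38% of all features.

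Genes of the same pathways outside the set moved with it on STING +/+. Of 36 other measured mitotic genes, of 51 listed, 21 rose and 0 fell, with a median of 1.06. Over all features 11.8% rose and 9.93% fell. As many as 14 of the 36 were detected only on Trex1 KO arrays that carry STING and so had to differ, and of the 7 detected on all 12 arrays 2 rose, with a median of 0.30. The 21 included Cdca3, a trigger of mitotic entry (2.79 ± 0.45), and Pbk, a mitotic kinase (2.74 ± 0.35). They also included Cdkn3, a phosphatase that acts on Cdk proteins (2.39 ± 0.50), and Anln, the anillin of the contractile ring (2.23 ± 0.40). Cdca3, Pbk, Anln and Dbf4, given next, were above background on 1 of the 2 WT arrays. Of 33 other measured replication genes, of 43 listed, 14 rose and 2 fell. Of the 33, 4 were detected only on Trex1 KO arrays that carry STING and so had to differ, Chaf1b and Clspn among them. Of these 4, 3 rose. Another 19 were detected on all 12 arrays, of which 7 rose and 1 fell. Uhrf1, which carries DNA methylation through replication, rose by 2.66 ± 0.37, the licensing factor Cdt1 by 1.83 ± 0.33 and the kinase subunit Dbf4 by 1.71 ± 0.34, and the chromatin assembly subunit Chaf1b was higher by at least 3.05-fold, with WT at background. Rpa2, which binds single-stranded DNA, fell by 1.09 ± 0.27, and Gmnn, the inhibitor of Cdt1, was at least 1.76-fold lower, with KO not above background. On STING +/-, where 1.14% of all features rose, 3 of the 36 mitotic genes and 1 of the 33 replication genes rose. The mitotic genes were Pbk (at least 4.23-fold), Anln (at least 3.28-fold) and the chromokinesin Kif4 (at least 1.76-fold). The replication gene was the checkpoint mediator Clspn (at least 1.86-fold), which had to differ as stated above. Each rose over WT hearts not above background.

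Of 16 measured E2F, MYB and DREAM genes, regulators of the members, 4 rose and 2 fell on STING +/+, where 11.8% of all features rose and 9.93% fell; the falls are thus near the share of all features, and the 8 detected on all 12 arrays held 1 rise and 2 falls. E2f1, an activator of S-phase genes, read 7.83 and 8.46 in Trex1 KO hearts, against 5.03 and 5.50 in WT hearts (2.88 ± 0.56, adjusted p = 0.00507, limma). On STING +/- it read 8.13 and 6.17, against 6.11 and 5.04, and on STING -/- 4.8 and 4.77, against 5.05 and 5.36. The KO arrays stood above WT on STING +/+ and +/-, by a small margin for replicate 2 on STING +/-. Such a separation upwards was seen in 26.6% of all features on STING +/+ and in 18.9% on STING +/-. On STING -/- E2f1 was not above background on either KO array, so its lower values there give no direction. E2f2, another activator, was at least 4.83-fold higher on STING +/+ and E2f3 rose by 1.84 ± 0.31, while Tfdp2, a dimer partner of E2F proteins, fell by 1.62 ± 0.28 and the repressor E2f6 fell by 0.95 ± 0.19. The remaining gene of the 4 that rose, Mybl2, which encodes B-MYB, read 5.2 and 5.72 in KO hearts on STING +/+, against 4.43 and 4.51 in WT hearts. Mybl2 was detected only on Trex1 KO arrays that carry STING and so had to differ. Foxm1 missed the threshold (0.83 ± 0.31, adjusted p = 0.0828, limma). Of 12 measured G1 cyclins and related genes 0 rose and 2 fell, the Cdk1 inhibitory kinase Pkmyt1 (-1.13 ± 0.29) and the p53 target Ccng1 (-0.97 ± 0.23), a number also near that share.

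Inhibitors of cyclin-dependent kinases split. Cdkn1c, which encodes p57, abundant in resting tissue, read 6.57 and 7.70 in Trex1 KO hearts on STING +/+, against 10.24 and 10.18 in WT hearts (-3.07 ± 0.38, adjusted p = 0.000426, limma). On STING +/- it read 9.14 and 10.18, against 9.77 and 9.80, and on STING -/- 10.19 and 10.35, against 10.29 and 10.09. The low values were thus seen in KO hearts with both STING alleles, with no separation of KO and WT elsewhere. Cdkn2b, which encodes p15 and blocks Cdk4 and Cdk6, rose by 2.86 ± 0.44, and Cdkn1a, which encodes p21, rose by 2.13 ± 0.44.

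Markers of leukocytes moved in the same samples. On STING +/+ 13 of 15 measured macrophage markers rose and 1 fell (median 3.04), and 6 of 10 measured markers of T and NK cells rose (median 3.49). Of these, 14 macrophage markers were detected on all 12 arrays and 12 of them rose, while the 2 T and NK markers detected on all 12 did not pass. The mean macrophage signal was 10.77 and 10.90 in Trex1 KO hearts, against 7.83 and 8.22 in WT hearts, and on STING +/- it was 9.75 and 9.23, against 8.18 and 7.81. The mean of the T and NK list was 8.23 and 8.46 in KO hearts on STING +/+, against 5.75 and 5.65, and on STING +/- it was 7.08 and 6.37, against 5.69 and 5.63. In both lists the KO arrays that carry STING were the highest, and replicate 1 was above replicate 2 on STING +/-, as for the members. On STING -/- the macrophage mean was 7.73 and 8.33 in KO hearts, against 7.49 and 8.39, and the T and NK mean 5.58 and 5.69, against 5.62 and 5.73. The T cell receptor chains Cd3d and Cd3e were detected only on the 4 KO arrays that carry STING, and so had to differ. Without these 2, 4 of 8 T and NK markers rose on STING +/+, with a median of 1.73. Of the other lists, 0 of 7 erythroid markers changed, 2 of 2 B and plasma cell markers and 1 of 3 neutrophil markers rose, and 5 of 9 cardiomyocyte markers, 3 of 9 fibroblast markers and 2 of 10 endothelial markers fell. On STING +/+ 11.8% of all features rose and 9.93% fell. The fibroblast differences ran from -4.56 to 1.6, with 4 of the 9 positive. The neutrophil marker that rose was detected only on Trex1 KO arrays that carry STING. The part of leukocytes in the members' levels was not tested.

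**Figure D4:**
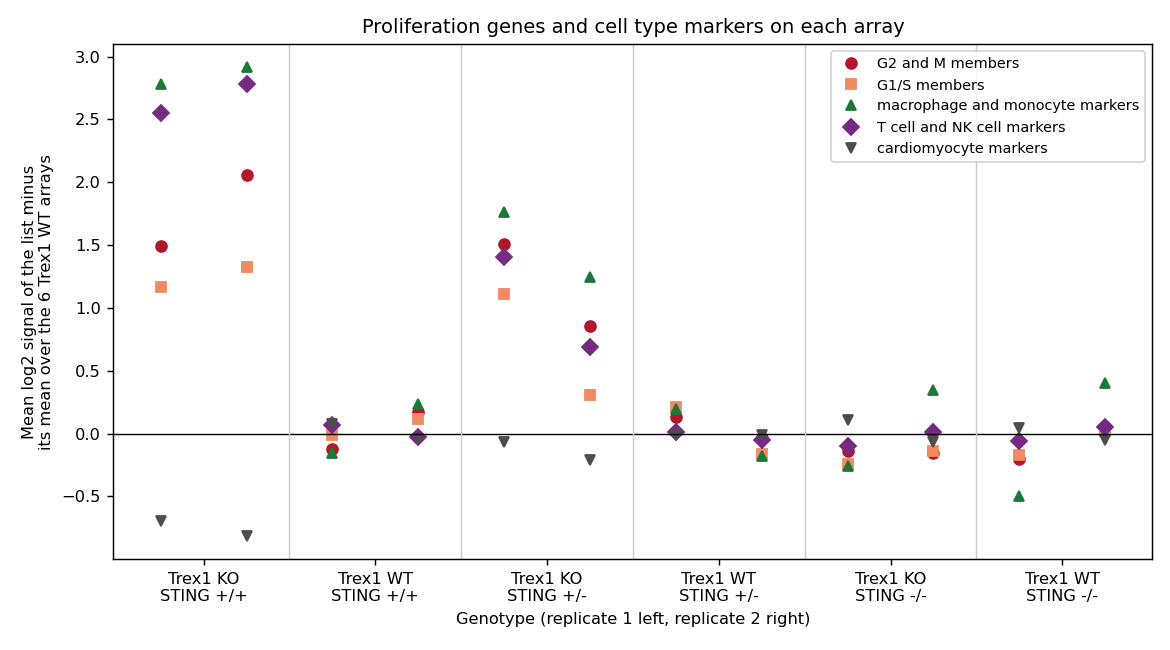
Points are the mean log2 signal of a gene list on each array minus the mean of the 6 Trex1 WT arrays, for replication members, mitotic members and 3 marker lists, with arrays ordered KO before WT within each STING genotype. Both member groups and both leukocyte lists are high on the 4 Trex1 KO arrays that carry STING, and the cardiomyocyte list is lowest on the 2 arrays labelled Trex1 KO, STING +/+.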

How the data were processed

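Heart total RNA of 6 genotypes, 2 samples each, was labelled as biotinylated cRNA for hybridisation to Illumina arrays (source: per the labels' protocols). The authors deposited non-normalized intensity values, 1 signal for each of 45281 probes on 12 arrays, from 50.1 to 65008.3. The score deposited beside each signal as a detection p-value increases with signal (Spearman 0.979 to 0.988) and was used as 1 minus the p-value. The authors' processed log2 values, centred on each probe's median, have array medians of -0.01 to 0.01 and differ by at most 0.0139 from quantile-normalized signals over 4895 bright probes; direction and scale follow from that match.

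In R 4.3.3 with limma 3.58.1, signals were corrected and normalized with neqc (offset 16). Probes with detection p under 0.05 on at least 2 arrays were kept (22810). The brightest probe stood for each gene, giving 15561 features, 12080 with 1 symbol. By the platform annotation 34885 probes carried 1 symbol, 18 several and 10378 none. One lmFit and eBayes model of the 6 genotype means took in every array, leaving 6 residual degrees of freedom, with 8 planned comparisons and 1 added later, and Benjamini-Hochberg adjustment over all features of a comparison. A gene detected on neither array of the dimmer group has a bound, "at least N-fold", against the lowest detected signal or its own, whichever is higher. A rise or fall is a pass of the threshold. Precision is limited by having 2 arrays per genotype.

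The members, the gene lists and the tests were chosen with earlier results of these data known. Named genes are the members, the targeted genes and, per other list, up to 4 past the threshold with the largest difference. Genes added outside that rule (Foxm1, Mybl2, E2f6, Rpa2, Gmnn, Cd3d, Cd3e) were chosen after their values were seen. The pipeline was tested on simulated data. The alternatives were the authors' processed values, plain quantile normalization, dropping the filter, tightening it to p under 0.01 on 4 or more arrays, a trended robust prior, array weights, only the groups compared, another probe per gene, and leaving out each array.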

Additional observations from a re-analysis of the deposited data

Results flagged for a closer look

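The Trex1 difference on STING +/+ exceeded that on STING -/- past the limma threshold in 12 members. Of these, Aurkb and Tpx2 were measured only through Trex1 KO arrays that carry STING, which favours such a difference. The differences between the differences (log2) were 3.13 for Nusap1, 2.96 for Prc1, 2.75 for Cdc20, 2.70 for Cdca8, 2.58 for Birc5, 2.56 for Mcm5, 2.37 for Cdk1, 2.06 for Kif22, 1.88 for Bub1b, 1.87 for Aurkb, 1.70 for Tyms and 1.59 for Tpx2. Cdca8, Aurkb and Tpx2 were not above background in Trex1 WT, STING +/+ nor in either STING -/- group, and Prc1 and Cdk1 not in Trex1 KO, STING -/-, so the sizes for these 5 are not exact and have no order. Nusap1, Cdc20, Birc5, Kif22 and Bub1b were above background on 1 of the 2 Trex1 WT, STING +/+ arrays, so their sizes are not exact either. With 2 arrays a group, no group was large enough to look for single outlying arrays.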

How the results depend on the processing

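Over the alternatives, no member changed direction where it had been called: of the recomputed member differences, 2674 kept their side of the threshold, 58 came to pass it, 212 no longer passed it and 0 turned. For Trex1 KO against WT on STING +/+ (25 members), array weights gave 15 and a fit of only the groups compared 14, and leaving out 1 array gave 12 to 21. For STING +/- (3 members), quantile normalization gave 1, the authors' processed values 1, no filter 0 and only the groups compared 0, and leaving out 1 array gave 0 to 8. For STING -/- against +/- in Trex1 KO (3), the stricter filter gave 5, the trended robust prior 6, array weights 10 and no filter 1, and leaving out 1 array gave 0 to 11. For STING +/- against +/+ in Trex1 KO (2), no filter gave 1, the stricter filter 1, array weights 0 and only the groups compared 0, and leaving out 1 array gave 0 to 9. For the difference between the Trex1 differences (12), no filter gave 7, and leaving out 1 array gave 1 to 19. For STING -/- against +/+ in Trex1 KO (24), array weights gave 16 and only the groups compared 16, and leaving out 1 array gave 17 to 23. For Trex1 KO against WT on STING -/-, and STING -/- against +/+ with Trex1 WT, the count was 0 under each alternative run. Fits without an array that leave 1 in a group assume that it varies like the other groups. With no filter, 38 members were tested among 29453 features. The cause of these changes was not tested. No paired analysis was possible because the labels number each sample once and repeat no number across genotypes. Dim signals limit the set: 8 members were not above background on 2 arrays, and bounds stand for several more.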
